A study of Canis lupus familiaris with 36 samples.

Results

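The miRNAs cfa-miR-26a, cfa-miR-26b and cfa-miR-101, written below without the prefix for dog, are 3 of the 453 mature miRNAs in the deposited table of canine cardiac tissue. They were selected by name as miRNAs linked to EZH2. They were measured by small RNA sequencing of formalin-fixed, paraffin-embedded (FFPE) heart from 6 dogs with cardiac hemangiosarcoma (HSA), a malignant tumor of endothelial cells, and 6 control dogs that died of non-neoplastic causes, with 1 library per dog. The deposited labels contradict themselves for all 12 cardiac libraries, because title and treatment field name opposite conditions, and the title was followed. The HSA dogs were older than the controls and prior chemotherapy was not a reason for exclusion, so age, treatment and tumor cannot be told apart. The 24 splenic dogs of the study, 18 with HSA and 6 controls, were not analysed here.

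EZH2 is the catalytic subunit of a Polycomb repressive complex that methylates histone H3 and keeps developmental genes silent, and it is often abundant in proliferating tumor cells. A miRNA pairs through its seed, a short stretch near its 5′ end, with sites in messenger RNAs and lowers their translation and stability. In other systems miR-26a and miR-101 are known to repress EZH2 in this way, and both are widely described as growth-restraining miRNAs. MiR-26a and miR-26b share a seed and differ little outside it. The miR-26 genes lie inside genes of small C-terminal domain phosphatases, and RefSeq annotation of the dog assembly UU_Cfam_GSD_1.0 placed miR-26a-1 within CTDSPL, miR-26a-2 within CTDSP2 and miR-26b within CTDSP1. The same annotation placed miR-101-2 within RCL1 and miR-101-1 within the uncharacterized gene LOC106558823. EZH2 messenger RNA was not measured.

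The 3 mature miRNAs had 5 entries in the table, 1 for each precursor. Both miR-101 entries held identical counts in every library and were merged, so the loci cannot be separated. The miR-26a-2 entry exceeded the miR-26a-1 entry by 0.0416% to 0.198% of its counts, and the larger entry was used. The 3 miRNAs were deeply counted, with at least 62439 counts of miR-26a, 26672 of miR-26b and 4991 of miR-101 in any library, so counting error was small against the differences between dogs. MiR-133a and miR-133c held the same reads to within 0.1%, as did miR-103 and miR-107, and each of these 2 pairs was counted once in shares and ranks. The total over 1 entry per mature miRNA, to which all shares below refer, was then between 5170570 and 8645651 counts in the control libraries and between 1515905 and 6623721 in the HSA libraries.

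The libraries differed in the levels of miRNAs used as markers of cell types. The 8 muscle miRNAs (miR-1, the miR-133 group, miR-206, miR-208a, miR-208b and miR-499) took 14.5% to 21.1% of the counts in control and 0.0898% to 20.8% in HSA, where HSA replicates 1 and 6 lay within the control range and HSA replicate 3 was lowest. By edgeR 0 of the 8 were called, with 1 at an unadjusted p under 0.05 and 0 called by DESeq2 or limma. In HSA replicate 3 the liver miRNA miR-122 took 26.7% of the counts, against at most 0.0615% in the other HSA libraries. It was called higher by edgeR and not by limma, and DESeq2 gave it no adjusted p. MiR-126, the endothelial marker, took 0.271% to 0.452% in control and 0.139% to 0.632% in HSA and was not called (log2 fold change -0.45, adjusted p = 0.328, edgeR). All 4 leukocyte miRNAs were called higher in HSA by edgeR, and limma called 2. For 2 of the 4 the groups did not overlap, beside 25.8% of all tested miRNAs in either direction. Of the 4 epithelial miRNAs tested 3 were called higher by edgeR and 3 by limma. Of all 225 miRNAs tested, edgeR called 18.7% higher and limma 53. Of the 3 erythroid miRNAs miR-144 was called higher, miR-451 was not called (log2 fold change 0.81, adjusted p = 0.198, edgeR), and miR-486 was lower in every HSA library without a call (-1.33, adjusted p = 0.0205, edgeR). The 4 miRNAs of smooth muscle and fibroblasts took 7.19% to 10.2% of the counts in control and 7.69% to 20.1% in HSA, and 0 of them were called by edgeR, DESeq2 or limma or had an unadjusted p under 0.05. In whole tissue, fewer cells of a type and less RNA per cell cannot be told apart.

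MiR-26a was among the most abundant miRNAs of the heart. Counting 1 entry per mature miRNA, it ranked 7 or 8 in every control library and from 5 to 9 in the HSA libraries. Its share of all counts was 4.84 ± 0.183% (SD, n = 6) in control and 4.17 ± 0.562% (SD, n = 6) in HSA. MiR-26b held ranks 18 to 22 in control libraries and 8 to 22 in HSA libraries, with shares of 1.29 ± 0.160% and 1.67 ± 0.280% (SD, n = 6 each). MiR-101 held ranks 39 to 53 in control libraries and 35 to 51 in HSA libraries, with shares of 0.176 ± 0.0622% and 0.297 ± 0.0771% (SD, n = 6 each). The order miR-26a, miR-26b, miR-101 held in 12 of 12 libraries without overlap of their levels. This order is one of counts, which also reflect how well each sequence is ligated and amplified.

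Levels were next compared between the conditions as CPM, the count scaled to a fixed library total, with TMM factors that centre each library on the bulk of its miRNAs. Differences were tested with edgeR's quasi-likelihood test. To be called, a miRNA needed an adjusted p (Benjamini-Hochberg) under 0.01 and a log2 fold change of 1 or more in either direction. By this rule 0 of the 3 miRNAs were called by edgeR, DESeq2 or limma, while 1 of them, miR-26a, had an unadjusted p under 0.05. Over all 225 miRNAs tested, 58 were called, or 25.8%, with 42 higher (18.7%) and 16 lower in HSA (7.11%). With library size as the sole scaling these counts were 68 and 5, and with the reads held under 2 names counted once in the TMM fit they were 29 and 19.

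MiR-26a had a lowest, median and highest level of 39667, 43009 and 46512 CPM in control and of 18668, 27351 and 34826 CPM in HSA. Every HSA library lay below every control library. Of all tested miRNAs, 24 were lower in HSA without overlap, or 10.7%. The mean was 42884 ± 2805 CPM (SD, n = 6) in control and 27007 ± 5495 CPM (SD, n = 6) in HSA. This was a log2 fold change of -0.67, with a standard error of 0.17 and a 95% interval from -1.04 to -0.30, or a ratio of 0.630. Its adjusted p of 0.00759 from edgeR passed the threshold, which 65 miRNAs passed at any fold (28.9%) and 21 of them in this direction (9.33%), but its fold did not reach the one set for a call. Without 1 library at a time the log2 fold change ran from -0.91 to -0.65 and the adjusted p from 0.0033 to 0.0188, below 0.01 in 1 of 12 fits, the one without HSA replicate 6.

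MiR-26b, its close relative, showed no such separation. Its lowest, median and highest level was 9389, 11494 and 13099 CPM in control and 6862, 11202 and 15438 CPM in HSA. The HSA libraries lay on both sides of the control range, with HSA replicates 2 and 4 below it and HSA replicate 3 above it. Its log2 fold change of -0.07 had a standard error of 0.19 (adjusted p = 0.772, edgeR), and the 95% interval from -0.49 to 0.35 leaves room for moderate differences in either direction.

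MiR-101 varied most. Its lowest, median and highest level was 912, 1418 and 2684 CPM in control and 1081, 1893 and 3326 CPM in HSA. The groups overlapped almost fully, and control replicate 3 exceeded 5 of the 6 HSA libraries. Its log2 fold change of 0.33 had a standard error of 0.30 (adjusted p = 0.372, edgeR), with a 95% interval from -0.31 to 0.98. Among the 189 tested miRNAs with a mean of at least 10 CPM, ranked from the steadiest, the SD of the log2 level between control dogs put miR-26a at rank 8, miR-26b at rank 42 and miR-101 at rank 163. In HSA the ranks were 16, 39 and 76.

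**Figure D1:**
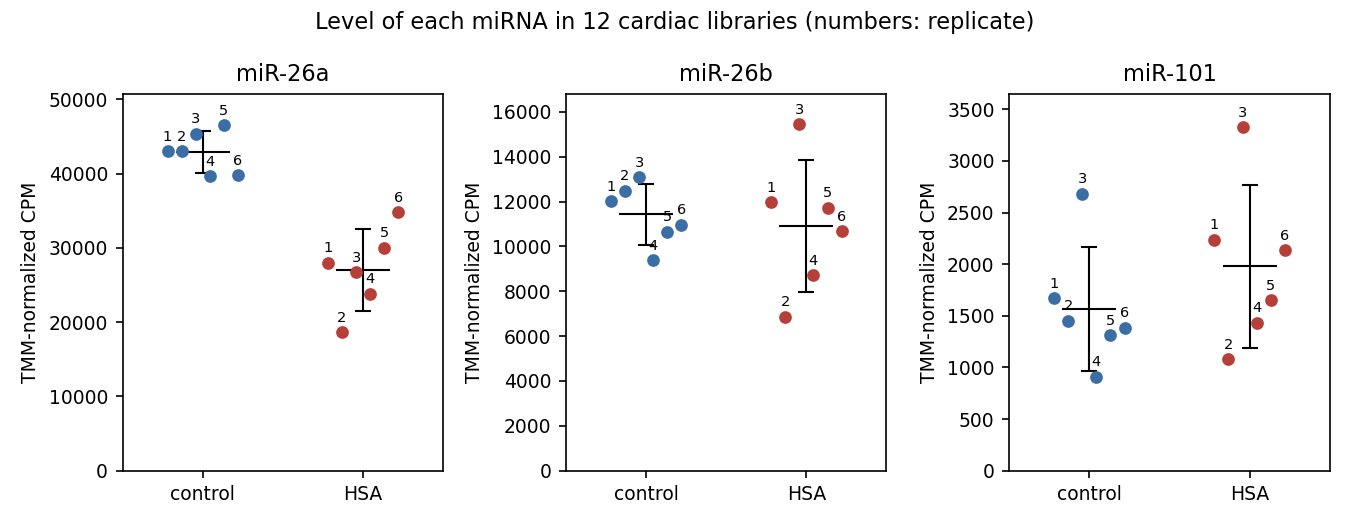
Level of miR-26a, miR-26b and miR-101 as TMM-normalized CPM in the 12 cardiac libraries, each point a dog numbered by replicate, with the mean and SD of each group as black bars and a vertical axis from 0. All 6 HSA points of miR-26a lie under the lowest control point of 39667 CPM, whereas the groups overlap for the other miRNAs.

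The size of these differences depended on the scaling. The TMM factors of control libraries (0.769 to 0.889) lay below those of HSA libraries (0.948 to 1.97). All tested miRNAs had a median log2 fold change of 0.34. With library size as the sole scaling that median was 0.97, and the log2 fold change of miR-26a was -0.13 (adjusted p = 0.346, edgeR). MiR-26b then turned to 0.46 (adjusted p = 0.0312, edgeR) and miR-101 stood at 0.85 (adjusted p = 0.0157, edgeR), neither past the rule for a call. In limma on the deposited CPM miR-26a stood at -0.07 (adjusted p = 0.619) and miR-101 at 0.94 (adjusted p = 0.0105), neither of them called. With upper quartile factors miR-26a stood at -0.68, and its adjusted p of 0.0237 (edgeR) did not pass 0.01. With shared reads counted once in the TMM fit, an alternative added after the data were seen, miR-26a stood at -0.88 (adjusted p = 0.00606, edgeR), miR-26b at -0.30 and miR-101 at 0.13, none of them called, beside a median of 0.13. As a share of all counts, without TMM factors, miR-26a overlapped between the groups, at 4.54% to 5.10% in control libraries and 3.49% to 4.74% in HSA libraries. Subtracting the median of all tested miRNAs removes a shift that a scaling gives to all of them alike, so little movement is then fixed by construction. Relative to that median, miR-26a lay at -1.01, miR-26b at -0.41 and miR-101 at -0.01 with TMM. In DESeq2, which kept 288 miRNAs, the positions were -1.30, -0.72 and -0.31, and in limma they were -0.81, -0.23 and 0.20.

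**Figure D2:**
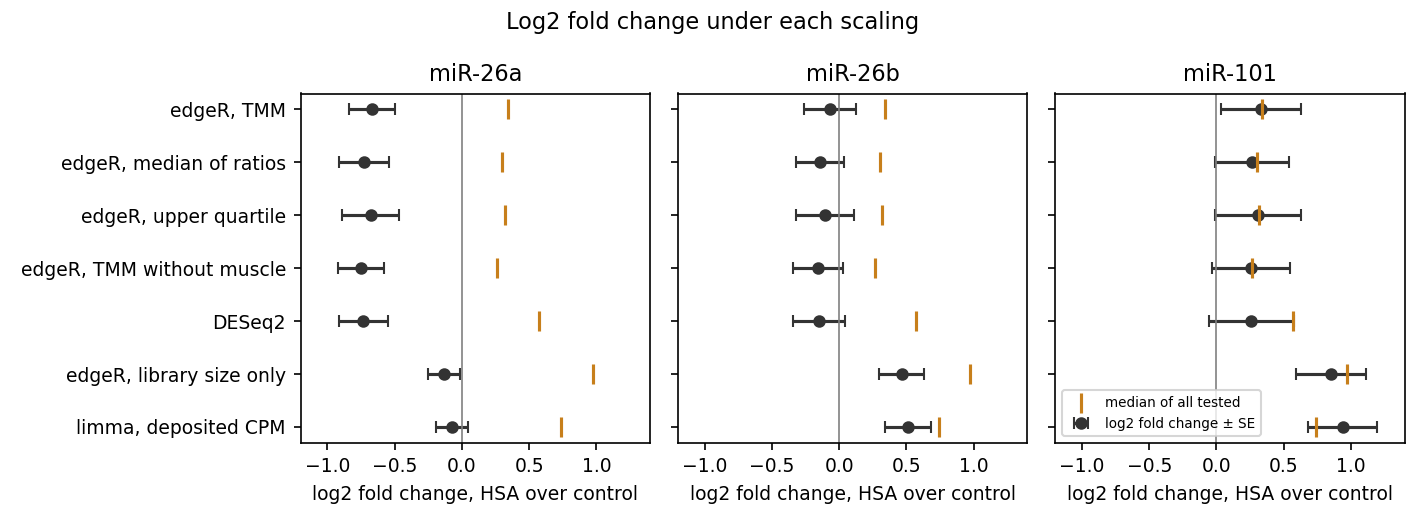
Log2 fold change of HSA over control for each of the 3 miRNAs under 7 fits, with bars of 1 standard error and an orange mark for the median of all miRNAs with an adjusted p in that fit. MiR-26a stays left of 0 in each fit, at -0.67 with TMM, -0.13 with library size only and -0.07 with limma, while miR-26b crosses 0.

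Ratios of counts within a library do not depend on the scaling, and they were compared for all 3 pairs by exact two-sided permutation tests over libraries, with p adjusted over the 3 pairs. The lowest, median and highest ratio of miR-26a to miR-26b was 3.44, 3.60 and 4.36 in control and 1.73, 2.64 and 3.26 in HSA. Each HSA library was below each control library. The mean ratio was 3.78 ± 0.404 (SD, n = 6) in control and 2.56 ± 0.507 (SD, n = 6) in HSA, a difference of -0.58 in mean log2 ratio (exact permutation p = 0.00216, the smallest that 6 against 6 can give, adjusted p = 0.00649). Omitting any 1 library left the difference between -0.66 and -0.48. Equivalently, miR-26b made up 21.0 ± 1.69% of miR-26 counts in control and 28.6 ± 4.45% in HSA (SD, n = 6 each). A low ratio was not peculiar to this pair: the ratio of miR-26a was lower in every HSA library against 64 of the 224 other tested miRNAs, or 28.6%, and was without overlap in either direction for 31.2%.

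The ratio of miR-26a to miR-101 had a lowest, median and highest value of 16.9, 29.2 and 43.5 in control and of 8.03, 16.5 and 18.2 in HSA. Of the 6 HSA libraries, 4 were below every control library, and control replicate 3, the lowest, was below the other 2. The mean log2 ratio differed by -1.01, a factor of 0.496 (exact permutation p = 0.00649, adjusted p = 0.00974), and by -1.16 to -0.84 with each library left out.

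The ratio of miR-26b to miR-101 was 4.88, 8.03 and 10.3 at its lowest, median and highest in control and 4.64, 5.71 and 7.10 in HSA. Here the groups overlapped, with 1 HSA library below the control range. The difference of -0.43 in mean log2 ratio (exact permutation p = 0.0368, adjusted p = 0.0368) was within the threshold of 0.05, but it was lost in 8 of the 12 tests without 1 library, when control replicate 1, 2, 4, 5 or 6 was absent or HSA replicate 1, 3 or 6 was, at adjusted p up to 0.0736. Over the 224 other tested miRNAs, the ratio of miR-26b was lower in every HSA library for 14.3% and separated either way for 21.0%, and that of miR-101 for 3.57% and 11.2%.

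**Figure D3:**
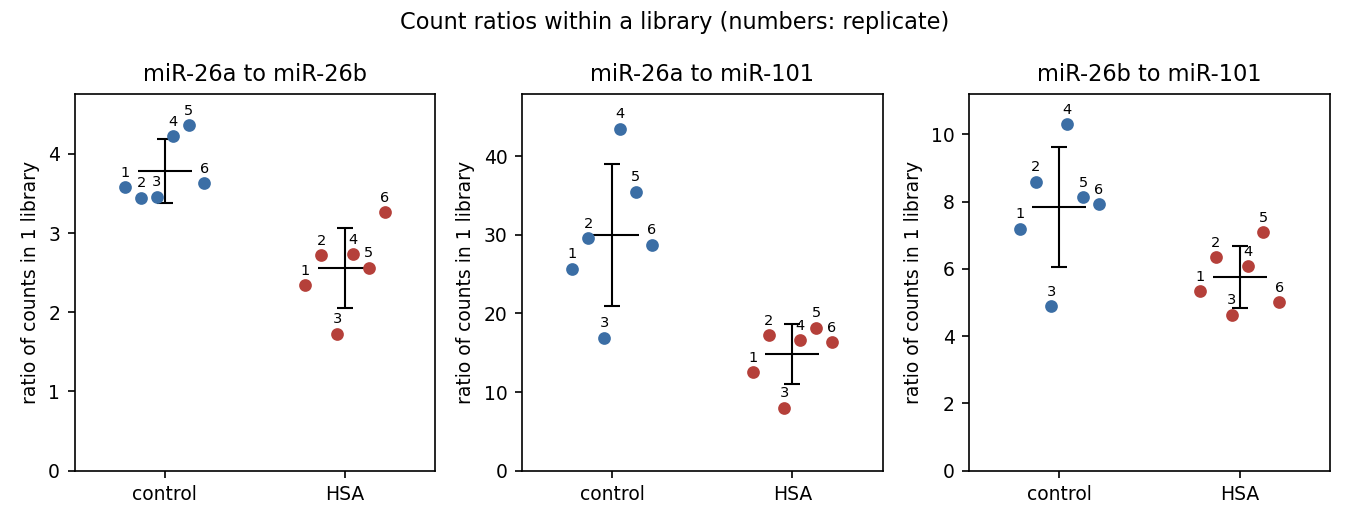
Ratio of counts between pairs of the 3 miRNAs within each cardiac library, numbered by replicate, with the mean and SD of each group as black bars and vertical axes from 0. The miR-26a to miR-26b ratio spans 3.44 to 4.36 in control and 1.73 to 3.26 in HSA, with no overlap.

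The ratios were set beside the muscle miRNA share of each library. HSA replicate 3, with a muscle share of 0.0898%, had the lowest ratio of miR-26a to miR-26b, 1.73, and the lowest ratio of miR-26a to miR-101, 8.03. The same library held 26.7% of its counts in the liver miRNA miR-122. HSA replicates 2, 4 and 5, with muscle shares of 3.43%, 3.87% and 9.60%, had ratios of miR-26a to miR-26b of 2.72, 2.73 and 2.56. HSA replicate 1, whose muscle share of 19.2% lay inside the control range, had a ratio of 2.34. HSA replicate 6, with a muscle share of 20.8%, had 3.26, the highest in HSA and just under the lowest control. The ratios of miR-26a to miR-101 in HSA replicates 1 and 6 were 12.5 and 16.3, and the lowest control ratio was 16.9. Without HSA replicates 2 and 3, left out together after the data were seen, the differences in mean log2 ratio were -0.48 for miR-26a to miR-26b and -0.87 for miR-26a to miR-101 (exact permutation tests, adjusted p = 0.0286 each, from 4 HSA and 6 control libraries). HSA replicate 4, with a muscle share of 3.87%, was kept, so this omission did not remove all libraries of low muscle share. The part of the muscle share and of other cell types in the differences between the groups was not tested.

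**Figure D4:**
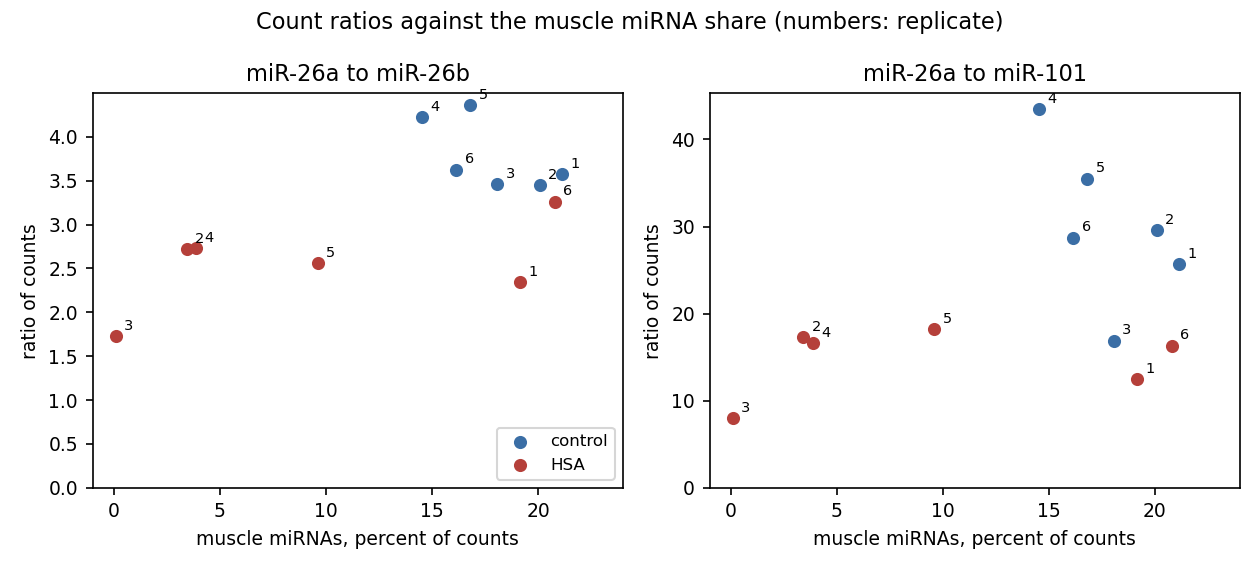
Ratio of miR-26a to miR-26b (left) and to miR-101 (right) against the percent of counts taken by the muscle miRNAs, for 6 control and 6 HSA libraries numbered by replicate. The muscle share spans 14.5% to 21.1% in control and 0.0898% to 20.8% in HSA, and HSA replicate 3 is lowest on both axes. That library also holds 26.7% of its counts in the liver miRNA miR-122.

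The miRNAs closest in pattern to each of the 3 were taken as those with the smallest SD over the 12 libraries of the log2 count ratio, a measure that is also free of scaling, among 188 others with a mean of at least 10 CPM. The SD spans both groups, so the choice itself favours miRNAs whose log2 fold change is near that of the member. Their fold changes below are description and not a separate result. For miR-26a these were miR-151 (SD 0.15), miR-1271 (0.19), let-7g (0.19), miR-186 (0.21) and miR-99b (0.25), against a median SD of 0.82. MiR-26b was at rank 16 with an SD of 0.38 and miR-101 at rank 70 with 0.68. The log2 fold changes of miR-151, miR-186 and miR-99b were -0.78, -0.65 and -0.99, with edgeR adjusted p of 0.0015, 0.00188 and 0.00271, so they too lay under the fold threshold. Those of miR-1271 and let-7g were -0.43 and -0.36, with edgeR adjusted p of 0.0374 and 0.0790. For miR-26b the closest were miR-185 (0.25), let-7g (0.26), miR-195 (0.28), miR-374b (0.30) and miR-107 (0.30), whose reads could not be told from those of miR-103, against a median of 0.77, and their log2 fold changes lay between -0.36 and 0.17. For miR-101 they were miR-374a (0.35), miR-26b (0.36), miR-29a (0.37), miR-340 (0.42) and miR-15b (0.44), against a median of 0.94. Over the 12 libraries together, the SD for miR-26b was slightly smaller with miR-101 than with miR-26a, at 0.36 and 0.38. Within control the order was the other way, with SDs of 0.36 with miR-101 and 0.15 with miR-26a. Within HSA they were 0.23 and 0.31, so neither was nearer to miR-26b in both groups.

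Other miRNAs known from other systems to repress EZH2 were read from a list of 10, of which 6 passed the count filter. Of these, 1 was called lower and 1 higher, or 2 of 6 beside 25.8% of all miRNAs tested, and the median log2 fold change was 0.38 beside 0.34 for all tested. MiR-30d, the most abundant of the list, was called lower, with a lowest, median and highest level of 88106, 104223 and 144867 CPM in control and 10624, 23818 and 75001 CPM in HSA. Its groups did not overlap, beside 10.7% of all tested miRNAs that were lower in HSA without overlap. The difference was -1.94 on the log2 scale with a standard error of 0.45 (adjusted p = 0.00461, edgeR). The call of miR-30d was kept in 5 of the 12 fits without 1 library, and was lost when control replicate 1, 2, 4 or 5 was absent or HSA replicate 1, 2 or 4 was, at adjusted p up to 0.0147, while its log2 fold change stayed between -2.46 and -1.77. Of the 6 other scalings and tools 5 kept the call, and with upper quartile factors the adjusted p was 0.0103.

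MiR-144, an erythroid miRNA also on the list, was called higher, from 32.3 ± 11.2 to 110 ± 50.6 CPM (SD, n = 6 each), which is 1.77 on the log2 scale with a standard error of 0.41 (adjusted p = 0.00469, edgeR). Its groups overlapped. Its call was kept in 4 of the 12 fits and was lost when control replicate 1, 2, 4 or 5 was absent or HSA replicate 1, 2, 3 or 4 was, at adjusted p up to 0.0252. MiR-98, of the let-7 family, was higher in every HSA library, from 1436 ± 97.4 to 2063 ± 463 CPM. Of all tested miRNAs, 25.8% had no overlap in either direction. The log2 fold change of miR-98, 0.52 (adjusted p = 0.0148, edgeR), was not called. MiR-98 was called with 2 of the 6 other scalings and tools, library size only and limma, where the log2 fold change reached 1.11. It was called in 0 of the 12 fits without 1 library, at 0.16 to 0.58, lowest without HSA replicate 4 (adjusted p = 0.412, edgeR). With shared reads counted once in the TMM fit it stood at 0.29 (adjusted p = 0.157, edgeR). The log2 fold changes of miR-25, miR-214 and miR-124 were 0.24, -0.13 and 1.65, none of them called. MiR-124 had low levels, with means of 4.98 CPM in control and 15.6 CPM in HSA. Its log2 fold change rose to 3.54 without control replicate 4, its highest control library at 23.3 CPM (adjusted p = 0.0129, edgeR). MiR-138a, miR-138b, miR-137 and miR-217 did not pass the filter, with at most 11 counts in a control library and 768 in an HSA library.

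A second list held 7 miRNAs known to repress the Polycomb proteins BMI1 or SUZ12, and 6 of them were tested. MiR-200c and miR-203, both epithelial miRNAs, were called higher, by log2 fold changes of 7.09 and 5.21 (standard errors 1.56 and 0.98, edgeR adjusted p = 0.00413 and 0.00193). This was 2 of 6, beside 18.7% of all tested miRNAs called higher. MiR-203 kept its call in 12 of 12 fits without 1 library and miR-200c in 7, losing it when control replicate 1, 2, 4, 5 or 6 was absent. Without HSA replicate 5, the highest library of both, the log2 fold changes of miR-200c and miR-203 were 4.61 and 3.93. MiR-128, best known from neurons, was lower in every HSA library than in any control library. Its means were 1169 ± 129 CPM in control and 863 ± 106 CPM in HSA (SD, n = 6 each). Of all tested miRNAs, 10.7% were lower in HSA without overlap. The log2 fold change of miR-128, -0.44 (adjusted p = 0.0137, edgeR), was not called and ran from -0.52 to 0.18 over the other scalings and tools. The log2 fold changes of miR-218, miR-15a and miR-16 were -0.69, 0.52 and -0.08, none of them called. The median of the list was 0.22.

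**Figure D5:**
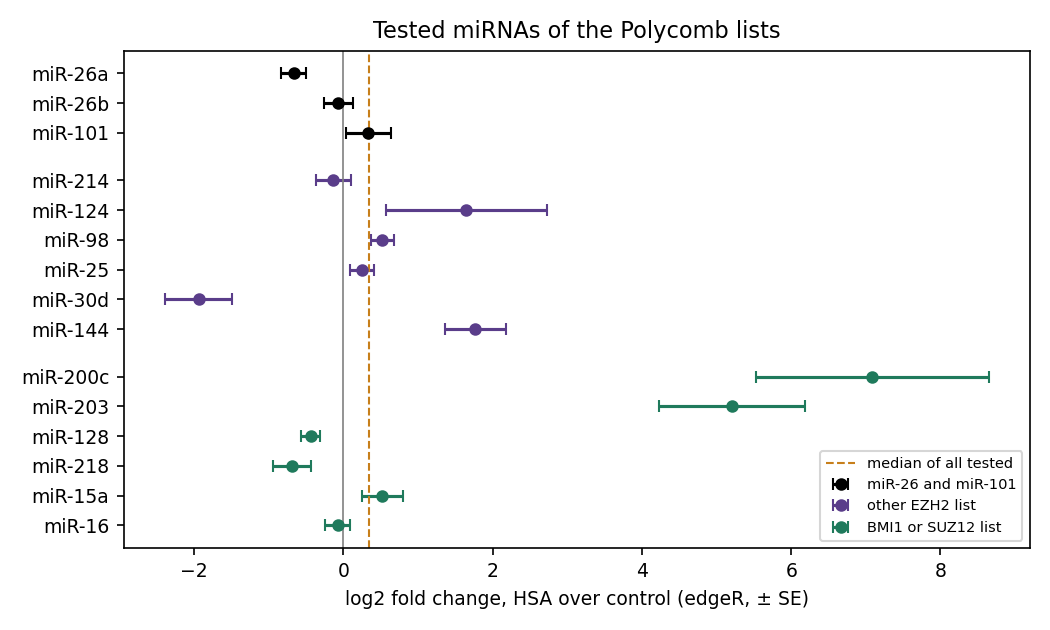
Log2 fold change of HSA over control with 1 standard error, from the edgeR fit, for miR-26a, miR-26b and miR-101, for 6 tested miRNAs of the EZH2 list and for 6 of the BMI1 or SUZ12 list, with the median of all tested miRNAs at 0.34 as a dashed line. The members of each list lie on both sides of that line, from -1.94 for miR-30d to 7.09 for miR-200c.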

How the data were processed

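Cardiac libraries were prepared from FFPE heart with the NEXTflex small RNA kit according to the methods of the study, whereas the labels name the QIAseq kit. For these files the authors used Cutadapt 4.1 for adapters, Bowtie 1.3.1 for alignment to the CanFam3.1 genome, and HTSeq 2.0.2 for counting on miRBase 22.1. The authors deposited raw counts, 1 entry for each precursor of a mature miRNA, and a second table of CPM. Recomputing the CPM gave a largest difference of 0.00499. Columns were matched to dogs by title, and 0 columns were left unused.

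Of 517 entries, those of a mature miRNA with identical counts were merged, leaving 474. EdgeR 4.0.16 in R 4.3.3 (filterByExpr by condition, TMM, quasi-likelihood test without robust dispersion) tested 244 entries for 225 mature miRNAs. Each mature miRNA was given by its entry with the highest total, and names whose counts differed by under 0.1% were counted once in shares. Standard errors were obtained from the estimate and its F statistic. Alternatives used DESeq2 1.42.0, limma 3.58.1 on log2 of the deposited CPM plus 1, other scalings and filters, and each library left out. Added after the data were seen were fits with shared reads counted once and ratios without HSA replicates 2 and 3. Count ratios were tested exactly with scipy 1.17.1, and pattern likeness used counts plus 0.5. Tests were tried on simulated data. Named miRNAs are the 3 chosen ones, 2 Polycomb lists and cell type markers from general knowledge, and the 5 closest in pattern. The 3 miRNAs and the lists were chosen with earlier results of these data known.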

Additional observations from a re-analysis of the deposited data

How the results depend on the processing

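The log2 fold changes of miR-26a, miR-26b and miR-101 were not called under any of the 28 alternatives, 16 with all libraries and 12 without 1 library. Their sign changed for miR-26b alone, to 0.46 with library size only, to 0.43 when shared reads were also counted once, and to 0.51 with limma on the deposited CPM. With each library left out, miR-26b ran from -0.35 to -0.03 and miR-101 from 0.07 to 0.55. The number of miRNAs called fell from 58 to 11 in a test against a log2 fold change of 1 and lay between 24 and 65 with each library left out, moving over 1.5 times without control replicate 1, 2, 4, 5 or 6 or HSA replicate 4. The cause was not tested. An adjusted p of 0.05 gave 76. The difference in the ratio of miR-26b to miR-101 had an adjusted p of 0.0758 with group medians (-0.50) and 0.105 without HSA replicates 2 and 3 (-0.39), and its value ran from -0.56 to -0.34 with each library left out.

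The replicate numbers of HSA and control come from different dogs and do not pair them, and the correlation of same-numbered libraries ran from -0.28 to 0.04. With the replicate block 6 miRNAs were called, none of these 3, and miR-26a had a log2 fold change of -0.69 (adjusted p = 0.0334, edgeR). In a block of same-numbered libraries the adjusted p of each of the 3 count ratios was 0.0312 by an exact sign-flip test. This is the smallest p that the test can give with 6 pairs, so it does not rank the 3 ratios. Groups of 6 dogs, whole tissue and the age difference limit what these values can show.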

Other observations

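The surplus of the miR-26a-2 entry over the miR-26a-1 entry, in reads that were counted on 1 precursor and not on the other, was chosen for description after its values were seen. It was 0.147% to 0.198% of the miR-26a-2 entry in control (median 0.179%) and 0.0416% to 0.113% in HSA (median 0.0854%), without overlap between the groups. It rested on 421 to 818 counts per control library and 26 to 305 counts per HSA library, and a net difference between entries does not give the output of either locus.

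MiR-26a and miR-26b together took 6.13 ± 0.318% of all counts in control and 5.84 ± 0.641% in HSA (SD, n = 6 each), so the joint share overlapped. On the TMM scale the joint level was 54321 ± 3679 CPM in control and 37903 ± 7439 CPM in HSA.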
